A study of Mus musculus with 6 samples.

Results

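The antiviral interferon-stimulated genes (ISGs) are 36 genes that cells switch on in answer to interferon and whose products sense, mark or block viruses. They were taken as a list of gene symbols and matched to 36 of the 43629 genes in the count files, and all 36 had enough reads to be tested. RNA-Seq had been done on primary cardiomyocytes from the heart ventricles of CD-1 mouse embryos at embryonic day 13.5, in 6 cultures. In 3 cultures the cells received AllStars negative control siRNA (negative siRNA, replicates 1 to 3), and in 3 they received DNMT1 siRNA, a pool of 4 siRNAs against the maintenance DNA methyltransferase (DNMT1 siRNA, replicates 1 to 3). Both groups were lipofected at 12 nM and collected 72 h later. The ventricles of a litter were pooled before culture, and cells positive for VCAM1 were collected on magnetic columns before RNA was isolated. The comparison asks how the expression of these genes differed between cells with reduced DNMT1 and cells with the control siRNA. The titles and the treatment protocol name DNMT1 siRNA, whereas the treatment tag of the same samples names DNMT3a siRNA, and the titles were followed. The sources do not say which cultures came from separate litters, so p-values measure only the spread between these 6 samples.

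Type I interferons are secreted proteins that bind the receptor pair IFNAR1 and IFNAR2, and the kinases JAK1 and TYK2 then phosphorylate STAT proteins. STAT proteins and IRF9 form the complex ISGF3, which binds an interferon-stimulated response element in the promoters of ISGs. Many ISG products act in the same loop, since RNA sensors such as RIG-I lead to more interferon and USP18 dampens the receptor. In some cell types loss of DNA methylation is known to start the loop through transcripts of repeats that methylation silences.

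Reads on genes numbered 13739561 to 16186310 in the DNMT1 siRNA libraries and 27852412 to 35896018 in the negative siRNA libraries. The normalized count used below is the count divided by the library's effective size relative to the geometric mean of the 6 libraries. A gene was called higher or lower when edgeR's quasi-likelihood test gave a false discovery rate (FDR, the adjusted p) below 0.05 over 15470 tested genes and the fold change exceeded 1.5. Dnmt1 was at 3446, 2760 and 2878 normalized counts in the negative siRNA cultures and at 772, 786 and 666 in the DNMT1 siRNA cultures, a log2 fold change of -2.03 (SE 0.11, edgeR adjusted p = 0.000192). Dnmt3a, the gene in the treatment tag, was not called (edgeR adjusted p = 0.0919), with its log2 fold change at 0.24 and an SE of 0.08. The share of reads outside genes was 14.6 to 17.5% with negative siRNA and 24.4 to 32.0% with DNMT1 siRNA. Summed markers of cardiomyocytes, 8 genes that include Myh6 and Actc1, were at 2088 to 2700 CPM (counts scaled to the effective library size) with negative siRNA and 4970 to 6079 CPM with DNMT1 siRNA, and 7 of the 8 were called higher. The 7 fibroblast markers summed to 27360 to 55600 CPM, above the cardiomyocyte sum in every culture. Most of this came from the collagen genes Col1a1, Col1a2 and Col3a1. Mean normalized counts with negative and DNMT1 siRNA were 504778 and 320805 for Col1a1, 3909 and 2972 for Pdgfra and 16186 and 42915 for Myh6. The RNA thus held transcripts of genes used as markers of more than 1 cell type. The paper cites earlier flow cytometry in which nearly all of the magnetically sorted cells were cardiomyocytes. In such bulk samples fewer cells of a type and less RNA per cell cannot be told apart.

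Of the 36 antiviral ISGs, 7 were called lower with DNMT1 siRNA (Irf7, Isg15, Usp18, Oas1a, Ifitm3, Bst2 and Ifi27l2a), 1 was called higher (Ifi27) and 28 were not called. Over all tested genes, 2.23% were called lower and 4.26% were called higher. The median log2 fold change of the list was -1.02 and that of all tested genes was -0.005, and 35 of the 36 estimates were negative. An unadjusted p below 0.05 was found for 23 of the 36, beside 4515 of the 15470 tested genes. With all 6 cultures DESeq2 called 14 of them lower, beside 1.55% of 31775 genes, and edgeR's exact test 18, beside 2.98% of the 15470. The quasi-likelihood test without a filter on low counts called 28, beside 2.21% of 31775 genes. Those 31775 genes include the low-count genes that the filter removes, so the 1.55% and 2.21% are not the same measure as the 2.23%. Without the filter the edgeR adjusted p was far smaller, as in Irf7 (7.71e-56, 0.0483 with the filter) and Oas2 (2.78e-06, 0.393 with it). Those 28 calls may thus not reflect the spread between the controls, and the reason was not tested. The small number of calls with the filter stood beside a wide spread among the control cultures. The median SD of log2 CPM between the 3 negative siRNA cultures was 0.93 for the antiviral ISGs and 0.17 for all tested genes, and between the 3 DNMT1 siRNA cultures it was 0.17 and 0.1.

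The spread had the same form in nearly every gene of the list. Negative siRNA replicates 1 and 3 were both above all 3 DNMT1 siRNA cultures in 35 of the 36 genes, as in 23.3% of all tested genes. Negative siRNA replicate 2 was the lowest of the controls in the same 35 genes, as in 35.0% of all tested genes. That culture was below all DNMT1 siRNA cultures in 17 of the 36 genes, within their range in 13 and above them in 6, beside 38.1%, 23.2% and 38.8% of all tested genes. The exception was Ifi27, with the opposite order of the controls. The highest control was more than 2 times the lowest in 29 of the 36 genes and in 11.5% of all tested genes. Among the DNMT1 siRNA cultures such a ratio was found in 1 of the 36 genes, the low-count Mx1. Summed over the list, the level was 2292, 1153 and 2826 CPM in negative siRNA replicates 1, 2 and 3 and 1151, 1119 and 1282 CPM in the DNMT1 siRNA cultures. Replicate 2 thus lay inside the range of the DNMT1 siRNA cultures, and the other two controls were far above it. Leaving out the abundant Ifitm3, Bst2, Ddx58 and Eif2ak2, the sums were 1403, 638.5 and 1816 CPM against 673, 649.5 and 741 CPM, with replicate 2 just below the lowest DNMT1 siRNA culture.

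**Figure D1:**
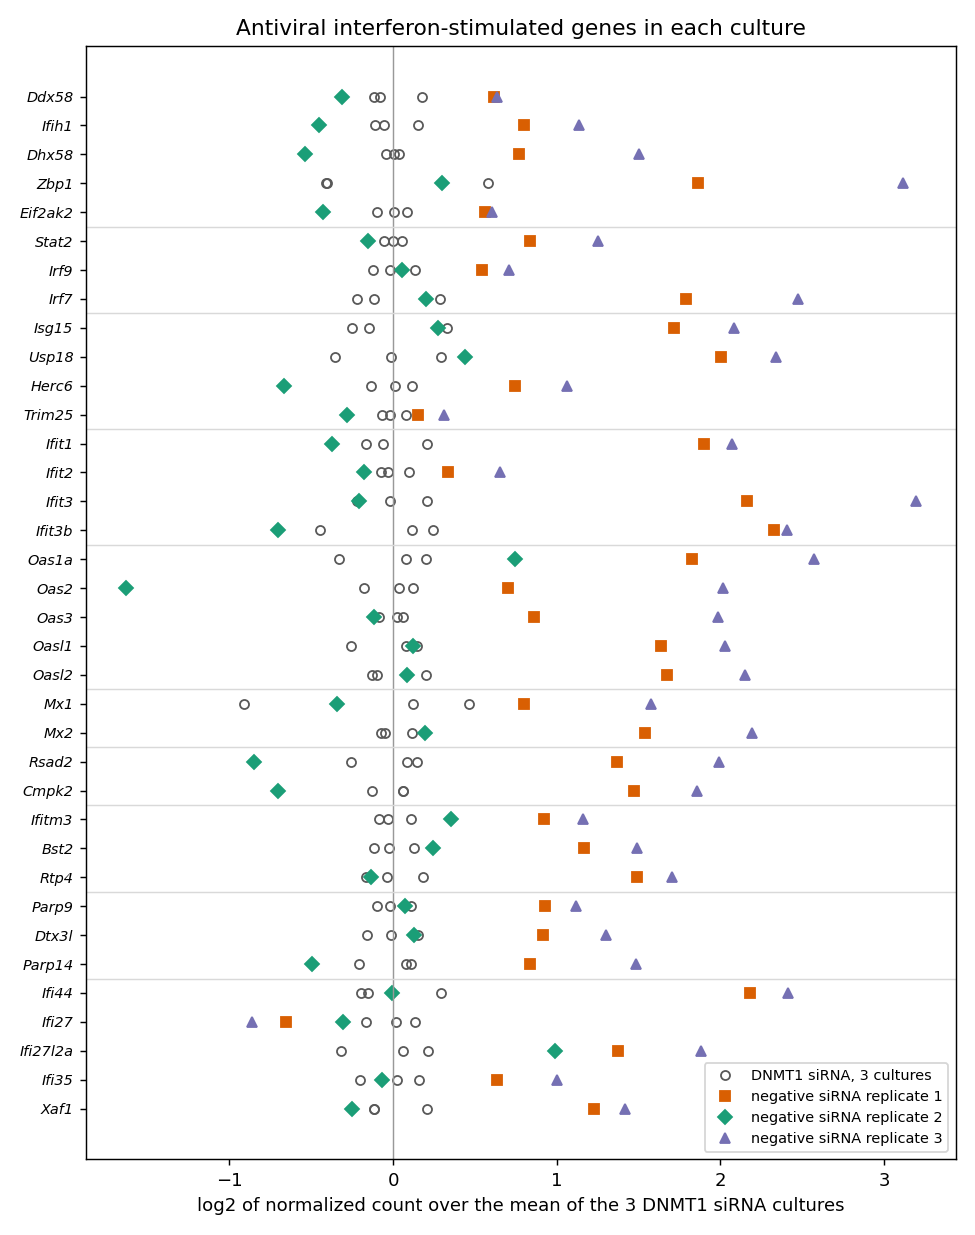
Each line is 1 antiviral ISG, grouped by role, and the horizontal axis gives the log2 of its normalized count over the mean of the 3 DNMT1 siRNA cultures. Open circles are the DNMT1 siRNA cultures and coloured marks are the 3 negative siRNA cultures: replicates 1 and 3 lie to the right of all circles in 35 of the 36 genes, while replicate 2 lies to the right of them in 6.

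The number of calls depended on which control culture was kept. Without negative siRNA replicate 2, edgeR's test called 31 of the 36 genes lower and 1 higher, against 2.78% and 5.42% of all tested genes. Without negative siRNA replicate 1 it called 3 of the 36 lower, with 3.1% of all tested genes, and without replicate 3 also 3, with 2.27%. The 3 genes were Oas1a, Ifitm3 and Ifi27l2a each time. The 5 genes not called lower without replicate 2 were Eif2ak2, Trim25, Ifit2, Mx1 and Ifi27. When a culture with DNMT1 siRNA was left out instead, Ifi27l2a was the only gene of the list called each time, and those fits also called fewer of all genes (112 to 146 lower, beside 345 with all cultures). The median log2 fold change of the list was -1.41 without negative siRNA replicate 2, -1.03 without replicate 1 and -0.66 without replicate 3. Only for Trim25 and Oas2, both without replicate 3, did the sign of an estimate change on leaving out a control culture.

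**Figure D2:**
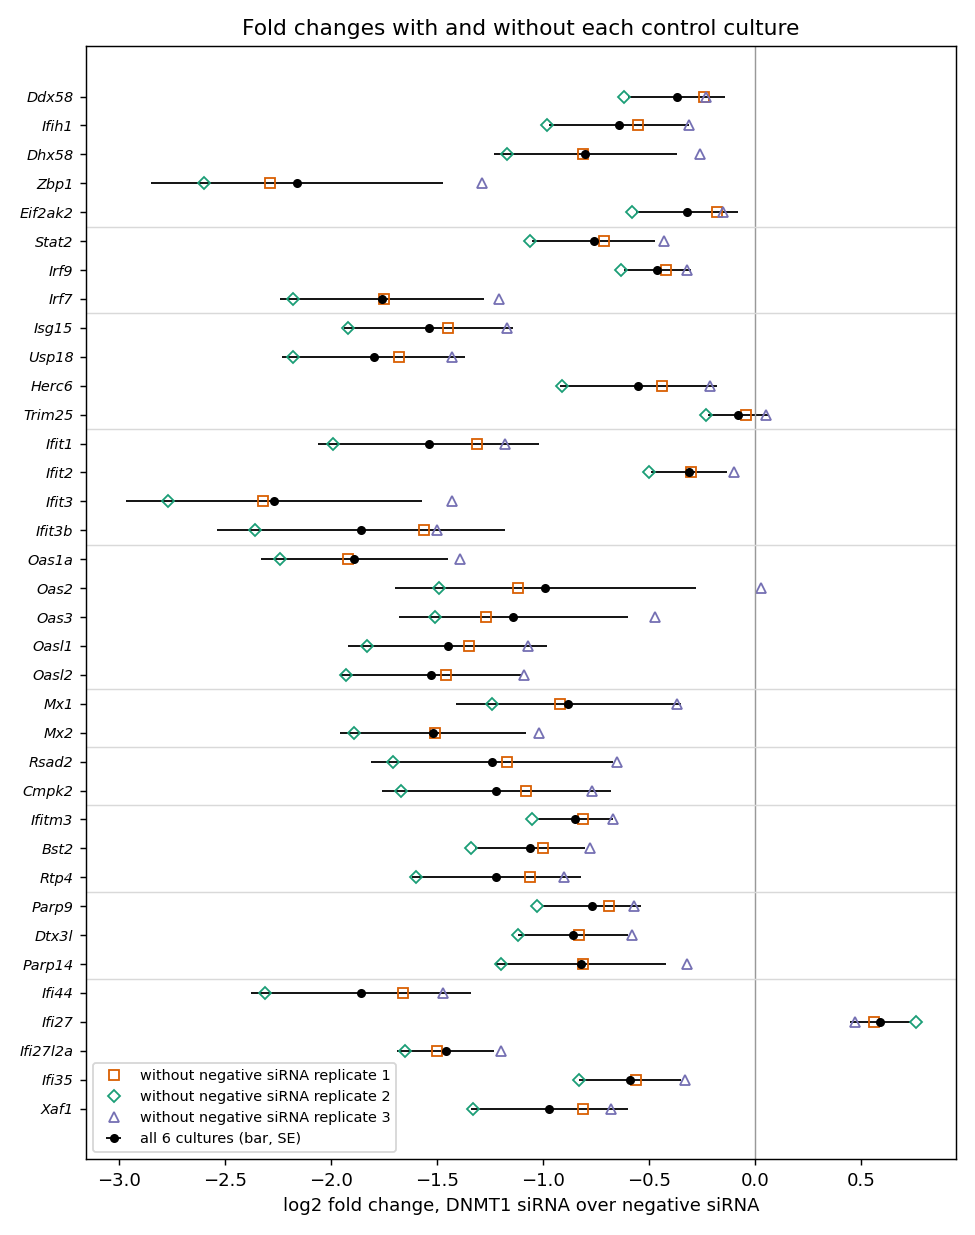
The horizontal axis gives the log2 fold change of each antiviral ISG, DNMT1 siRNA over negative siRNA, with black points and bars for the estimate and SE from all 6 cultures and open marks for the estimates without each control culture. The open diamonds, without negative siRNA replicate 2, are the lowest estimates in the 35 genes other than Ifi27.

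**Figure D3:**
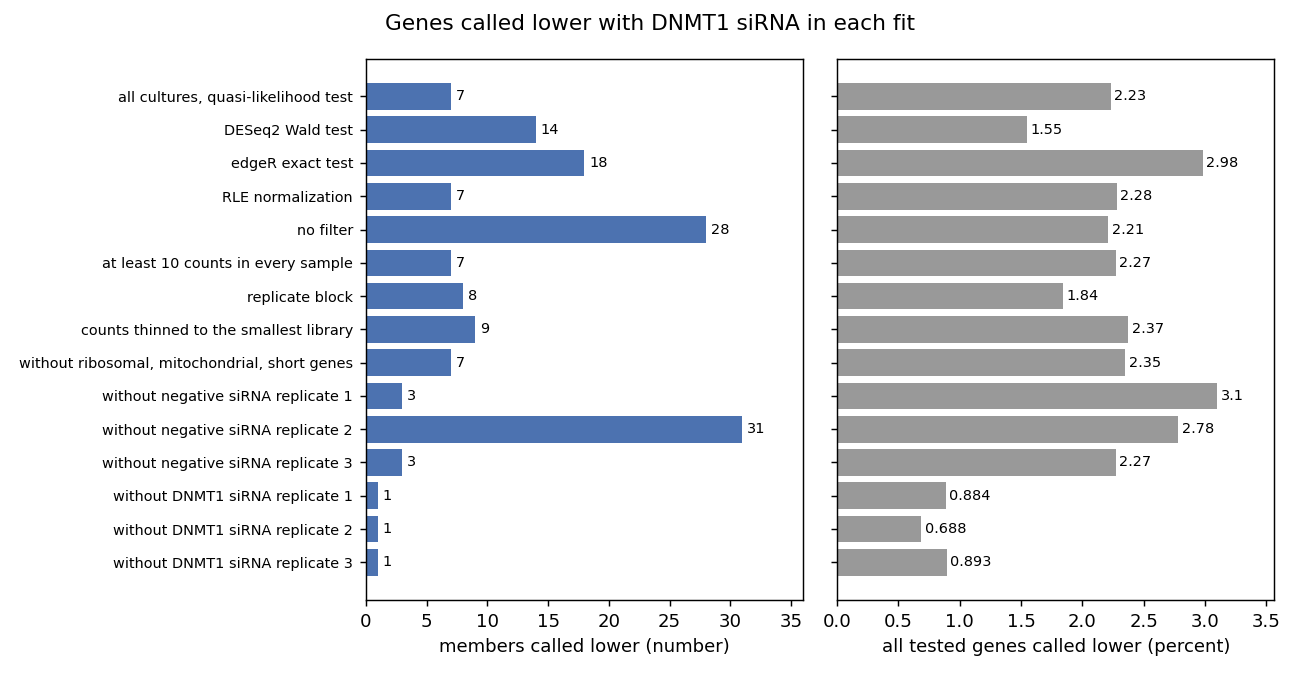
Bars give the number of the 36 antiviral ISGs called lower (left) and the percent of all tested genes called lower (right) in each of 15 fits. The left bars range from 1 to 31, while the share of all genes stays between 0.688 and 3.1%.

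Of the signalling and transcription factors, Irf7, which drives interferon gene transcription and is itself an ISG, was called lower. It was at 1397, 465 and 2242 normalized counts with negative siRNA and at 347, 372 and 492 with DNMT1 siRNA. Replicate 2 of the controls lay within the DNMT1 siRNA range, so the groups overlapped. The fitted level was 3.39 times higher with negative siRNA, a log2 fold change of -1.76 (SE 0.48, edgeR adjusted p = 0.0483), and Irf7 lost the call when negative siRNA replicate 1 or replicate 3 was left out. Stat2 and Irf9, which encode parts of ISGF3, were not called. Stat2 was at 2372, 1197 and 3166 normalized counts against 1279, 1379 and 1328 (log2 fold change -0.76, adjusted p = 0.126), and the log2 fold change of Irf9 was -0.46 (adjusted p = 0.0954). Without negative siRNA replicate 2 both were called lower, at -1.06 and -0.63.

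The ISG15 system attaches the ubiquitin-like protein ISG15 to other proteins and removes it again, and 2 of its 4 genes were called lower. Isg15, the modifier, was at 1445, 534 and 1864 normalized counts with negative siRNA and at 370.1, 398 and 553 with DNMT1 siRNA. Its lowest control overlapped the DNMT1 siRNA cultures, and the log2 fold change was -1.54 (SE 0.40, edgeR adjusted p = 0.0423). Usp18, the protease that removes ISG15 and dampens the interferon receptor, was at 1144, 387 and 1442 against 283, 223 and 350.0, and here all controls were above all DNMT1 siRNA cultures. Its log2 fold change was -1.80 (SE 0.43, edgeR adjusted p = 0.0326). Both lost the call without negative siRNA replicate 1 or without replicate 3. Herc6, the mouse ligase for ISG15, and Trim25, a ubiquitin ligase that acts on RIG-I, had log2 fold changes of -0.55 and -0.08 (adjusted p = 0.362 and 0.739).

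Enzymatically active members of the oligoadenylate synthetase (OAS) family make a second messenger that turns on the RNase L nuclease when double-stranded RNA is present. With all 6 cultures edgeR's quasi-likelihood test called 1 of the 5 OAS family genes lower, Oas1a. DESeq2 and the exact test each called 3, Oas1a, Oasl1 and Oasl2. Oas1a was at 207, 97.9 and 348 normalized counts with negative siRNA and 61.7, 46.6 and 67.1 with DNMT1 siRNA. The groups did not overlap, and the fitted level was 3.71 times higher with negative siRNA, a log2 fold change of -1.89 (SE 0.44, edgeR adjusted p = 0.029). Oasl2 came close to the threshold, at 2512, 836 and 3491 normalized counts against 735, 722 and 906 (log2 fold change -1.53, SE 0.43, adjusted p = 0.0522), with replicate 2 again inside the range of the DNMT1 siRNA cultures. Oas2 had the widest controls of the list, 163, 32.4 and 407, a highest over lowest ratio of 12.58, against 103, 88.9 and 110 in the DNMT1 siRNA cultures. Its log2 fold change of -0.99 (SE 0.71) was not called (adjusted p = 0.393). Oasl1 and the low-count Oas3 had log2 fold changes of -1.45 and -1.14 (adjusted p = 0.0791 and 0.201).

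Of the 3 membrane restriction factors 2 were called lower, Ifitm3 and Bst2, which also had the highest levels of the list per length of transcript. IFITM3 blocks the fusion of viruses in endosomes, and its transcript was at 468 ± 126 CPM per kilobase of exon (RPKM, SD, n = 3) with negative siRNA and 260 ± 18.1 RPKM with DNMT1 siRNA. Bst2 was at 226 ± 89.5 and 109 ± 9.47 RPKM. In normalized counts Ifitm3 was at 7253, 4890.3 and 8541 against 3747, 3611 and 4125. The groups did not overlap, with a log2 fold change of -0.85 (SE 0.18, edgeR adjusted p = 0.0211). Bst2, which encodes tetherin and holds budding virions on the cell surface, was at 4791, 2526 and 5981 normalized counts against 2096, 1968 and 2334, again with no overlap. Its log2 fold change was -1.06 (SE 0.26, edgeR adjusted p = 0.0374), and the call was lost without negative siRNA replicate 1 or without replicate 3. Rtp4, also induced by interferon, was at 944, 306 and 1093 against 327, 299 and 381 and was not called (log2 fold change -1.22, adjusted p = 0.0859).

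Ifi27l2a and Ifi27, 2 neighbours within 9.47 kb of chromosome 12, were both called, in opposite directions. Ifi27l2a was at 821, 628 and 1169 normalized counts with negative siRNA and 330, 254 and 366 with DNMT1 siRNA, so that even the lowest control was above every DNMT1 siRNA culture. Its log2 fold change was -1.46 (SE 0.23, edgeR adjusted p = 0.00711), and it was called lower in each of the 14 alternative fits. Ifi27 was at 655, 833 and 566 against 1129, 1044 and 919, with no overlap and with replicate 2 the highest control. The log2 fold change of 0.59 (SE 0.14, edgeR adjusted p = 0.0349) lay just past the limit of 1.5-fold (0.585 on the log2 scale), and 6 of the 14 alternative fits called it, those without negative siRNA replicate 1 or 3 or without a DNMT1 siRNA culture not among them. Groups that did not overlap were found in 6 of the 36 genes with DNMT1 siRNA lower (the 5 called genes Usp18, Oas1a, Ifitm3, Bst2 and Ifi27l2a, and Mx2) and in 1 with DNMT1 siRNA higher, beside 17.7% and 18.3% of all tested genes.

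Genes of the IFIT family, whose products bind foreign RNA ends, had the lowest median log2 fold change of the roles, -1.70, and 0 of the 4 were called by edgeR's quasi-likelihood test. DESeq2 called 0, edgeR's exact test called 3, and 3 had an unadjusted p below 0.05. Ifit3 was at 578, 112 and 1181 normalized counts with negative siRNA and at 127, 111 and 149 with DNMT1 siRNA. Replicate 3 of the controls was 10.58 times replicate 2, which sat among the DNMT1 siRNA cultures, and the log2 fold change of -2.27 came with an SE of 0.70 (adjusted p = 0.0711). Ifit1 was at 2309, 478 and 2601 against 593, 551 and 713, with replicate 2 below every DNMT1 siRNA culture (log2 fold change -1.54, SE 0.52, adjusted p = 0.0899). Ifit3b, a near copy of Ifit3, was at 478, 58.6 and 505 against 113, 70.0 and 103. The counter kept reads without a unique alignment apart from the gene counts, so reads common to the pair may be missing from both. Ifit2 had the smallest difference of the family, with a log2 fold change of -0.31 (adjusted p = 0.304). Without negative siRNA replicate 2, Ifit1, Ifit3 and Ifit3b were called lower, at -1.99, -2.77 and -2.36, and Ifit2 was not.

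The 5 RNA and DNA sensors had a median log2 fold change of -0.64. With all 6 cultures 0 of them were called by edgeR's quasi-likelihood test, 1 (Zbp1) by DESeq2 and by the exact test, and 1 had an unadjusted p below 0.05. Ddx58, which encodes RIG-I, was at 4090.1, 2153 and 4141 normalized counts with negative siRNA and 2524, 2466 and 3022 with DNMT1 siRNA (log2 fold change -0.37, SE 0.23, adjusted p = 0.311). Ifih1 (MDA5), Dhx58 (LGP2) and the kinase gene Eif2ak2 (PKR) had log2 fold changes of -0.64, -0.80 and -0.32, none of them called. In these 4 genes negative siRNA replicate 2 was below every DNMT1 siRNA culture. Zbp1, a sensor of nucleic acids in the left-handed form, was at 71.2, 24.1 and 170 against 14.8, 29.2 and 14.7, and its log2 fold change of -2.16 had an SE of 0.69 (adjusted p = 0.0796).

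Of the 10 genes not yet described, 0 were called with all 6 cultures by edgeR's quasi-likelihood test, while DESeq2 and the exact test each called Ifi44, Mx2, Parp9 and Dtx3l lower, and 6 had an unadjusted p below 0.05. Ifi44 was at 1809, 396 and 2127 normalized counts against 349, 359 and 489 (log2 fold change -1.86, SE 0.52, adjusted p = 0.0538). Mx2, of the MX family of GTPase genes, is annotated as a polymorphic pseudogene. It was at 250.3, 98.6 and 393 against 83.1, 93.3 and 81.8, without overlap (log2 fold change -1.52, SE 0.44, adjusted p = 0.0587), while Mx1 stayed under 60 normalized counts in every culture. Rsad2, which encodes viperin, was at 499.5, 108 and 769 against 205, 162 and 214, and its neighbour Cmpk2, a mitochondrial nucleotide kinase, had nearly the same log2 fold change (-1.24 and -1.22, adjusted p = 0.194 and 0.173). For both, replicate 2 was below all DNMT1 siRNA cultures. The ADP-ribosylation genes Parp9, Dtx3l and Parp14 had log2 fold changes of -0.77, -0.86 and -0.82 (adjusted p = 0.0665, 0.064 and 0.221). Parp9 and Dtx3l share 458 exon bases on opposite strands (9.4 and 8.0% of their exon lengths), so part of their reads may be ambiguous. The same may hold for Ifi35, Rtp4 and Herc6, which share 16.8, 13.9 and 13.7% of their exon lengths with other annotated genes. These overlaps are those of a GENCODE annotation, and whether the authors' Ensembl annotation holds them was not checked. The share of ambiguous reads was 3.58 to 3.65% with negative siRNA and 6.02 to 6.35% with DNMT1 siRNA. Ifi35 and Xaf1 had log2 fold changes of -0.59 and -0.97 (adjusted p = 0.153 and 0.127).

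Many of the genes lie side by side in the genome. On GRCm38, Ifit2, Ifit3, Ifit3b and Ifit1 occupy 99.3 kb of chromosome 19 (34550694 to 34650009), and Oas2, Oas3 and Oas1a occupy 177 kb of chromosome 5. Oasl2 and Oasl1 (41.0 kb, chromosome 5), Parp14, Dtx3l and Parp9 (140 kb, chromosome 16), Mx1 and Mx2 (114 kb, chromosome 16) and Rsad2 and Cmpk2 (37.1 kb, chromosome 12) form further groups. Within the Ifit group the log2 fold changes ran from -2.27 to -0.31, while those of Rsad2 and Cmpk2 were -1.24 and -1.22 and those of Oasl2 and Oasl1 were -1.53 and -1.45.

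To show what the promoters of these genes hold, RefSeq windows from 250 bases before to 50 bases after the transcription start (GRCm38.p6) were searched on both strands for GAAANNGAAA, a core of the interferon-stimulated response element, with overlapping matches counted. Windows were given for 25 of the 36 genes (27 windows), and 13 of these 25 (52.0%) held at least 1 match, beside 3.44% of 32851 windows of all genes. At least 2 matches were found for 7 of the 25, and in 0.225% of all windows. Genes with a match had a median log2 fold change of -1.14 and the 12 without had a median of -0.92, ranges of -2.27 to -0.32 and -1.86 to -0.08 that overlapped. The windows held a median of 6 CpG dinucleotides, from 1 to 22, beside a median of 7 in all windows. No window was given for Dhx58, Ifi27, Ifi27l2a, Mx1, Mx2, Oas2, Parp14, Parp9, Rtp4, Usp18 and Zbp1. The windows of Oas1a (chr5:120907476-120907775, minus strand) and Irf7 (chr7:141266375-141266674, minus strand) are shown as those of called genes, and the windows of Isg15 (chr4:156200769-156201068, minus strand) and Ifit3 (chr19:34583279-34583578, plus strand) were added after their values were seen, as examples with several matches. Each is written 5′ to 3′ on the strand of the gene, with capitals for the matches to GAAANNGAAA or its reverse complement, and overlapping matches run together.
Oas1a: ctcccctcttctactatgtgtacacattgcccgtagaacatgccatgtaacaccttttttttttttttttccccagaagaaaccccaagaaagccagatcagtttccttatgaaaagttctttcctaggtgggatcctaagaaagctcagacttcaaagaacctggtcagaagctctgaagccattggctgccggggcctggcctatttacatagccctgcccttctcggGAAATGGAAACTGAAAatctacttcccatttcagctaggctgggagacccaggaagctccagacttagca
Irf7: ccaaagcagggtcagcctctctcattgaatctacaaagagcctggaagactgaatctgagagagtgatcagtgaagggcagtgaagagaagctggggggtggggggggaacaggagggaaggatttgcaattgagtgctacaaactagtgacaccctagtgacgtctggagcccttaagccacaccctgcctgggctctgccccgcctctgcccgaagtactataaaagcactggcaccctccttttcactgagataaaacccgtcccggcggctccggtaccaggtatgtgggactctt
Isg15: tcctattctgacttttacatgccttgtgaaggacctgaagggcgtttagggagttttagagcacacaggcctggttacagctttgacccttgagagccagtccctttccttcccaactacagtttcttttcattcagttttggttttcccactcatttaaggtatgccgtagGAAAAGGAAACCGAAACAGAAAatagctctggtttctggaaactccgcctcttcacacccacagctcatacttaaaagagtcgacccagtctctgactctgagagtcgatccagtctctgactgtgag
Ifit3: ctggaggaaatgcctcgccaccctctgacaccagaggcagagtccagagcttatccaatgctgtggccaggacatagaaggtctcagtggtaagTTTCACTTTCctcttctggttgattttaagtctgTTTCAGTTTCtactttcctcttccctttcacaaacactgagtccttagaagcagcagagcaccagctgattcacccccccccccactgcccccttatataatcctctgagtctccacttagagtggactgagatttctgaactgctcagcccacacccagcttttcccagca
The matches began 20 and 14 bases before the start of Oas1a, 78, 72 and 66 bases before that of Isg15 and 156 and 122 bases before that of Ifit3. Irf7 had no match in its window.

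The genes that make and relay interferon were read in the same way. Of 45 genes listed for interferon production and signalling, 31 were tested. Of these, 0 were called in either direction by edgeR's quasi-likelihood test, by its exact test or by DESeq2. An unadjusted p below 0.05 was found for 9 of the 31, a share like that of all tested genes (4515 of 15470). Their median log2 fold change was -0.08. None of the 12 interferon ligand genes listed had more than 2 reads in any culture, 5 of them had none, and the total was 4 reads over the negative siRNA libraries and 7 over the DNMT1 siRNA libraries. Ifnb1, the interferon most cells make first, had 1 read in negative siRNA replicate 1 and none in the other cultures, where a count of 0 allows up to 3 reads. The receptor genes Ifnar1 and Ifnar2 had log2 fold changes of -0.08 (SE 0.07, adjusted p = 0.486) and -0.42 (SE 0.12, adjusted p = 0.0557). The kinase genes Jak1 and Tyk2 were at -0.15 (SE 0.09) and 0.02 (SE 0.11), and Irf3, the factor that starts interferon transcription, was at 0.13 (SE 0.08), none of them called. Tyk2 changed sign under 5 alternatives, with an estimate near 0 in each.

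Leaving out negative siRNA replicate 2 changed calls in the pathway too. Tlr3, a sensor of double-stranded RNA, was at 452, 185 and 512 normalized counts with negative siRNA and at 292, 281 and 293 with DNMT1 siRNA, with replicate 2 the lowest of the 6 cultures. Its log2 fold change of -0.41 (SE 0.32) was not called (adjusted p = 0.441), and without replicate 2 it was -0.74 and called (adjusted p = 0.00186). Socs1, an inhibitor of the kinases, was at -0.49 (SE 0.24, adjusted p = 0.228) with all cultures and was called at -0.67 without replicate 2 (adjusted p = 0.0429). Ifngr2, a chain of the receptor for interferon gamma, passed the FDR but not the fold limit, with a log2 fold change of 0.52 (SE 0.06, edgeR adjusted p = 0.00233). Jak2 at -0.40 (adjusted p = 0.0447) and Traf3 at 0.31 (adjusted p = 0.0378) did likewise.

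**Figure D4:**
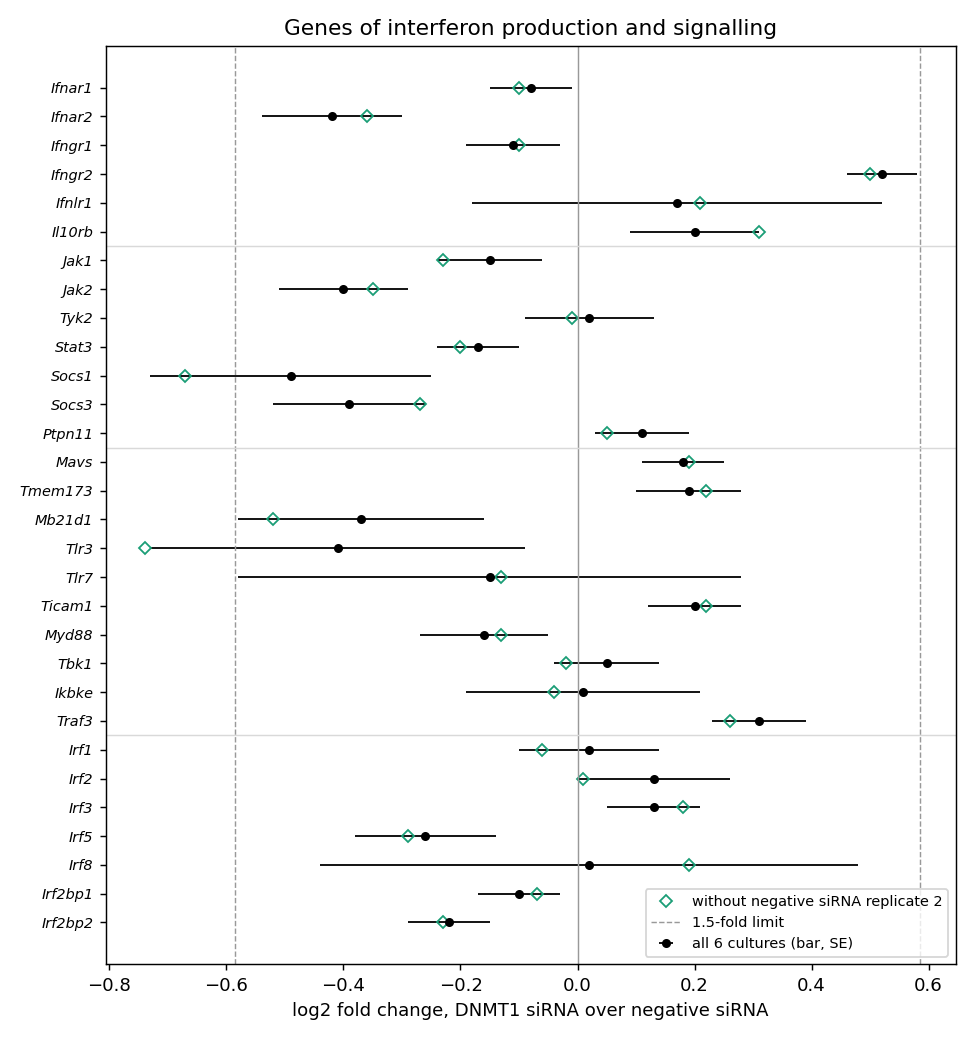
The horizontal axis gives the log2 fold change, DNMT1 siRNA over negative siRNA, of tested genes of interferon production and signalling, with bars for the SE and dashed lines at the 1.5-fold limit. Black points come from all 6 cultures and open diamonds from the fit without negative siRNA replicate 2, in which Socs1 and Tlr3 lie beyond the limit.

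Interferon-stimulated genes outside the antiviral list were placed beside it. Of 50 such genes 49 were tested, with a median log2 fold change of -0.47. An unadjusted p below 0.05 was found for 23, beside 4515 of all 15470 tested genes. DESeq2 called 11 lower and 1 higher, beside 1.55% lower of 31775 genes, and the exact test 15 and 1, beside 2.98% lower. By edgeR's quasi-likelihood test 6 were called lower and 0 higher, beside 2.23% and 4.26% of all tested genes. Those 6 genes were Ifi205 (log2 fold change -2.50, at most 35.0 normalized counts in any culture), Ifi204 (-1.38), Gbp2 (-1.19), Plac8 (-1.17), Tor3a (-0.81) and Isg20 (-0.69). Gbp2, a guanylate-binding GTPase, was at 1218, 866 and 1785 normalized counts against 567, 462 and 662. Replicate 2 was the lowest control in 45 of the 49, as in 35.0% of all tested genes. Replicates 1 and 3 were both above all DNMT1 siRNA cultures in 40, as in 23.3% of all tested genes. Their summed level was 2503, 1447 and 3019 CPM in the controls and 1648, 1611 and 1795 CPM in the DNMT1 siRNA cultures, so that replicate 2 was below all DNMT1 siRNA cultures here. On leaving out replicates 1, 2 and 3 in turn, edgeR called 4, 32 and 3 of these genes lower, beside 3.1%, 2.78% and 2.27% of all tested genes. Without a DNMT1 siRNA culture it called 0 or 1, beside 0.688 to 0.893% of all tested genes. Antiviral and other ISGs were 13 of the 345 genes called lower with all cultures (3.77%), while they were 85 of the 15470 tested genes. The fit without replicate 1 called 3 antiviral and 4 other ISGs among 472 genes, and that without replicate 3 called 3 and 3 among 345. Without replicate 2 these ISGs were 63 of 422 (14.9%). Replicate 2 was the lowest control in most of them, so the rise on leaving it out follows from that order and is no separate result.

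Markers of other cell types were read beside these values. The 11 macrophage markers summed to 13.4, 41.6 and 39.6 CPM in the negative siRNA cultures and to 11.3, 16.7 and 19.4 CPM in the DNMT1 siRNA cultures, with 1 of them, C1qc, called lower. Their order differed from that of the antiviral ISGs, since replicate 1 was the lowest control and replicate 2 the highest. Fibroblast markers were at 36020, 55600 and 38210 CPM in the controls and 27360 to 29190 CPM with DNMT1 siRNA, with 3 of 7 called lower, and smooth muscle markers were at 5709, 8033 and 5146 CPM against 4501 to 4722 CPM. For both sums, replicate 2 was the highest control while the antiviral ISGs were lowest there. Single fibroblast markers differed in this order. Replicate 2 was the highest control for Col1a1, Col1a2, Col3a1, Postn and Pdgfra. It was the lowest for Dcn, called lower, at 7086, 5577 and 7288 normalized counts in the controls, and for Tcf21, at 3910, 3648 and 4475. Endothelial markers summed to 58.2, 93.4 and 56.0 CPM in the controls and 89.0 to 104 CPM with DNMT1 siRNA, with 2 of 6 called higher. In this sum replicate 2 lay with the DNMT1 siRNA cultures, as it did for Pecam1, Cdh5 and Tie1. For the called Kdr and Emcn it was below all of them. Tek went the other way, at 724, 657 and 613 normalized counts in the controls against 518, 532 and 517, and was not called (log2 fold change -0.35). Epicardial markers stayed at 1295 to 1484 CPM in all cultures. Of the 5 blood markers none had more than 4 reads in a culture, and Hba-a2 had none in any. The part of these cell types, and of the share of reads outside genes, in the antiviral ISG levels was not tested.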

How the data were processed

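PolyA RNA of 6 cultures was sequenced as single reads. Per the paper's methods, the authors cleaned the reads with FastQC, used TopHat2 to map them to mm10 and HTSeq to count reads per gene of an Ensembl annotation, and the deposited values are raw counts per gene without normalization. Tool versions and the strand setting are not given in the sources used here. The counter's own totals, reads outside genes (14.6 to 32.0%) among them, were kept out of library sizes.

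Counts were tested with edgeR 4.0.16 (R 4.3.3) by its quasi-likelihood F test. Low genes were removed by filterByExpr (at least 10 counts, total of at least 15), libraries were scaled by TMM, and p-values received Benjamini-Hochberg adjustment over 15470 genes. The SE was obtained from the size of the log2 fold change and the root of its F statistic. RPKM used TMM-scaled CPM and exon lengths of a GENCODE annotation of GRCm38, which holds 42462 of the 43629 genes. The test was checked on simulated data. Replicate libraries differed by more than sampling noise (chi-square per degree of freedom from 2.7 to 54.5), so none was a copy.

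The 36 genes and the other lists were chosen with earlier results of these data known, and support nothing about direction. By rule, the text gives called members per culture and names 7 genes of the pathway (1 of which is not reported here), its called genes, and the 3 lowest and 3 highest called genes among the other ISGs. Uncalled members given per culture, and Ifngr2, Jak2, Traf3, Socs1 and Tlr3, were chosen after their values were seen. Alternatives were DESeq2 1.42.0, edgeR's exact test, RLE normalization, other filters, thinning of the counts to the smallest library, other thresholds, a replicate block and leaving out each culture. Totals of 13739561 to 35896018 counts leave wide errors for genes with few reads.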

Additional observations from a re-analysis of the deposited data

How the results depend on the processing

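With all 6 cultures 7 of the 36 antiviral ISGs were called lower, and the count was 14 with DESeq2, 18 with edgeR's exact test, 28 with no filter, 1 at an FDR below 0.01 and 1 to 31 on leaving out a culture (3, 31 and 3 without negative siRNA replicates 1, 2 and 3, and 1 without each DNMT1 siRNA culture in turn). The 1 called higher, Ifi27, became 0 with DESeq2, with no filter, without ribosomal protein, mitochondrial and short non-coding genes and at an FDR below 0.01, and was 0 to 1 on leaving out a culture. For the pathway the counts of 0 became 1 lower with no filter, 1 lower and 2 higher with no limit on fold change, and 0 to 3 lower on leaving out a culture. For the other ISGs the 6 lower became 11 with DESeq2, 15 with the exact test, 22 with no filter, 1 at an FDR below 0.01 and 0 to 32 on leaving out a culture, and the 0 higher became 1 with DESeq2, with the exact test, with no filter and with at least 10 counts in every sample, and 0 to 2 on leaving out a culture. Over all genes the 345 lower and 659 higher became 491 and 652 with DESeq2 and 461 and 838 with the exact test. They became 701 and 994 with no filter, 874 and 1054 with no limit on fold change and 124 and 296 at an FDR below 0.01. On leaving out a culture they ranged over 112 to 472 and 255 to 823. Without negative siRNA replicate 3 the log2 fold changes of Trim25 and Oas2 turned to 0.0496 and 0.0259 (ranges on leaving out a culture -0.232 to 0.0496 and -1.49 to 0.0259), and that of Tyk2 turned to -0.00206 with DESeq2, -0.0063 with no filter, -0.0513 and -0.0083 without negative siRNA replicates 1 and 2, and -0.0114 without DNMT1 siRNA replicate 1 (up to 0.137 on leaving out a culture). The other alternatives kept the antiviral counts within 1.5 times. Of 502 log2 fold changes of members under the alternatives, 400 kept their side of the threshold, 66 passed it, 34 lost it and 2 changed sign. The causes were not tested. With DESeq2 and with no filter, which keep 31775 genes, the median of all log2 fold changes was 0.14 and 0.11. The fit with no filter gave the antiviral ISGs smaller adjusted p than the main fit, so its counts may not reflect the spread between the controls. Same-numbered cultures did not deviate together (correlations of 0.0064, -0.0208 and 0.0274). With 3 cultures per group this cannot show whether same-numbered cultures shared a litter or preparation. With a replicate block 8 members were called lower and 1 higher, 6 other ISGs lower and 0 pathway genes, beside 285 lower and 513 higher of all genes.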
